A study of Rattus norvegicus with 6 samples.

Results

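Proteins of the BCL2 family decide whether the mitochondrial outer membrane stays closed, and 10 of their genes were looked up in CD163+ macrophages of the rat brain with and without ischemia. The genes were taken by name: the survival genes *Bcl2*, *Bcl2l1*, *Mcl1* and *Bcl2a1*, the pore-forming effectors *Bax* and *Bak1*, and the BH3-only genes *Bid*, *Bad*, *Bcl2l11* and *Pmaip1*. A probe set naming that gene alone was at hand for 8 of the 10, and these 8 had 14 probe sets of the 31099 on the array. *Bax* shares its probe set with a second locus in the annotation and *Pmaip1* has no named probe set there, so neither was analysed here. Each gene is given by its probe set of highest mean over the arrays, and the others are given beside it. All 8 genes passed the filter on low signal, with 9928 of 14217 genes.

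CD11b+CD163+ cells were sorted from the right hemisphere, and the RNA of each array came from 1 rat, all of them adult Sprague-Dawley males. The control group consisted of 3 rats without ischemia (63, 68 and 69). Ischemia was 1 h of occlusion of the right middle cerebral artery by a filament, followed by 16 h of reperfusion, in 3 other rats (64, 65 and 66). The paper describes the sorted cells as perivascular and subpial macrophages, known as border-associated macrophages (BAMs). In its checks of purity most but not all sorted cells were CD11b+CD163+, and the sort from ischemic brain held a small share of granulocytes. As these are bulk samples, fewer cells of a kind and less RNA per cell cannot be told apart.

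Survival proteins of the family hold the effectors BAX and BAK in check. BH3-only proteins, which share only the short BH3 motif with the rest of the family, either bind and occupy the survival proteins or activate the effectors. Once the effectors open the outer membrane, cytochrome c leaves the mitochondrion and the caspases follow. In macrophages and other myeloid cells, survival is known to rest largely on MCL1, A1 (the product of *Bcl2a1*) and BCL-xL (from *Bcl2l1*), with the balance set by growth factors and inflammatory signals.

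Values are log2 values from RMA (robust multi-array average), and differences are ischemia minus control, with the standard error (SE) from limma. A gene was called higher or lower at an adjusted p under 0.01 over all genes tested. The medians of the arrays were 7.82 to 7.90. On the array of control 63 the highest value was 13.88, against 14.98 to 15.03 on the other 5, and the 99th percentile was 12.85 on that array against 13.22 to 13.29. The 3′ minus 5′ difference of the actin probe sets ranged from 0.058 to 0.073 over controls and from 0.17 to 0.24 over ischemic rats. Genes of other tissues gave a background level of 7.27, the 90th percentile of 29 genes. *Cd163*, the sorting marker, was at 12.63 to 13.86 in controls and 13.38 to 14.11 after ischemia.

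After ischemia, 4 of the 8 genes were higher and 1 was lower. *Bcl2l1*, *Bad*, *Bak1* and *Bcl2a1* rose by 1.43, 1.11, 1.06 and 0.81 log2 units, while *Bcl2* fell by 0.99. Among all genes tested 16.8% were called higher and 5.99% lower. The differences of the 8 genes had a median of 0.75, against 0.10 over all genes tested. Control and ischemic rats did not overlap for 6 of the 8, and they did not for 55.6% of all genes tested. The genes called higher were 2 survival genes, 1 effector and 1 BH3-only gene. With the additional fold threshold of the study's methods, a log2 change beyond 2, limma called 0 of the 8. Over all genes tested this threshold left 162 higher (1.63%) and 58 lower (0.584%). The paper reports many more genes in both directions at the thresholds it states, and the reason for this gap was not tested.

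**Figure D1:**
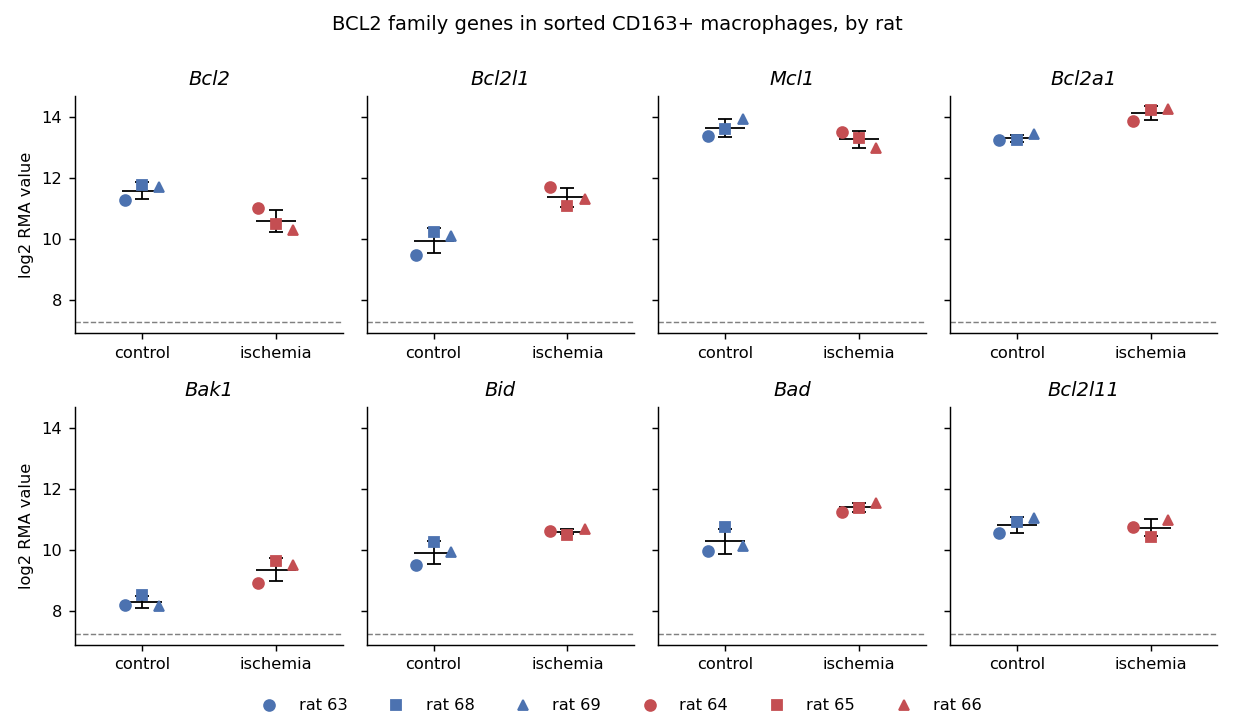
Log2 RMA values (vertical axis) of 8 BCL2 family genes in control (blue) and ischemic (red) rats, where each point is 1 rat, with the group mean and SD as bars (n = 3 per group) and a dashed line at the background level (7.27). The groups overlap for *Mcl1* and *Bcl2l11* and stand apart for the other 6, with the ischemic rats below the controls for *Bcl2* and above them for the other 5.

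*Bcl2l1* encodes BCL-xL, a survival protein of the outer membrane. It was at 9.49, 10.24 and 10.11 in controls 63, 68 and 69, and at 11.70, 11.08 and 11.32 in ischemic rats 64, 65 and 66. All ischemic rats were above all controls, and control 63 was the lowest. The difference was 1.43 (SE 0.24, adjusted p = 0.0028 from limma). A second probe set moved alike, from 8.57 ± 0.20 to 9.61 ± 0.16 (mean ± SD, n = 3), a difference of 1.04 (SE 0.16, adjusted p = 0.00189 over all probe sets). Another was below the background level on all 6 arrays (6.90 to 7.19) and was not tested. *Bcl2l1* was still called when any 1 of the 6 rats was left out (difference 1.20 to 1.57) and with arrays centred on ribosomal protein genes (1.0, adjusted p = 0.00488 from limma). With the mean of its 3 probe sets, which includes the one below background, the difference was 0.88 (adjusted p = 0.00346).

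The 5 tested genes whose centred values lay nearest to those of *Bcl2l1* over the 6 arrays were *Tgfbi*, *Lmnb2*, *Rcc1l*, *Ggct* and *Tbxas1*, at mean absolute differences of 0.15 to 0.17 log2 units. *Tgfbi* encodes a matrix protein, *Lmnb2* a nuclear lamin and *Tbxas1* thromboxane synthase. Their likeness to *Bcl2l1* is a description over 6 arrays in 2 groups.

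*Bcl2*, the founding survival gene of the family, went the other way. It was at 11.26, 11.78 and 11.70 in controls and at 11.00, 10.48 and 10.30 in ischemic rats 64, 65 and 66. The groups did not overlap, and ischemic rat 64 and control 63 were the nearest to each other. The difference was -0.99 (SE 0.22, adjusted p = 0.00873 from limma). The call was lost without any 1 rat other than ischemia 64 (adjusted p = 0.0107 to 0.0351) and without the low-signal filter (adjusted p = 0.016), and the difference stayed negative in each of these fits. With arrays centred on ribosomal protein genes it was -1.41 (adjusted p = 0.00062).

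Of 8 oligodendrocyte markers tested, 3 were called lower after ischemia, and their mean log2 level was 9.39 to 10.85 over controls and 8.02 to 9.09 over ischemic rats. *Mbp*, a myelin gene, fell by 1.83 (SE 0.24, adjusted p = 0.00113). Of 12 lymphocyte markers with a probe set, 7 were below the background level on all arrays, among them *Cd3e*, *Cd3g* and *Ms4a1*. Of the 5 tested 2 were called lower and 1 higher. One of those lower, *Cd5*, passed the low-signal filter only through the controls. The other, *Cd7*, fell by 3.12 (SE 0.33, adjusted p = 0.000562 from limma). Of the other brain cells, 1 of 6 tested microglia markers and 1 of 4 tested neuron markers were called lower, and 1 of 6 tested markers of astrocytes and endothelium was called higher, with control 63 at a mean of 9.59 against 7.55 and 7.69 in the other controls. The part of these cell types in the difference of *Bcl2* was not tested.

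Since *Bcl2l1* and *Bcl2* were read on the same arrays, a constant added to all log2 values of an array cancels in their difference. Taking each gene relative to its control mean, *Bcl2l1* minus *Bcl2* was -0.14, 0.094 and 0.043 in controls and 2.34, 2.24 and 2.65 in ischemic rats. The spread was 0.12 (SD) in controls and 0.21 after ischemia, and the mean difference was 2.41. The groups stand apart here because each gene already separated them, in opposite directions, so these values are a description with no test.

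*Bcl2a1* encodes A1, a survival protein of blood cells whose gene is a known NF-kB target. It was at 13.23, 13.23 and 13.43 in controls and 13.85, 14.22 and 14.26 after ischemia, close to the top of the scale in both groups. The ischemic rats were all above the controls, rat 64 by the least. The difference was 0.81 (SE 0.15, adjusted p = 0.00465 from limma). The call was lost without any 1 rat other than ischemia 64 (adjusted p = 0.011 to 0.0251). It was also lost with quantile normalization repeated (0.58, adjusted p = 0.043) and with arrays centred on ribosomal protein genes (0.39, adjusted p = 0.21). These scalings moved the median of all genes from 0.10 to -0.01 and -0.32. Without control 63, whose array had a highest value of 13.88, the difference was 0.78 (adjusted p = 0.0161).

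Levels of markers of blood-borne myeloid cells are given beside those of *Bcl2a1*. The mean log2 level of 8 monocyte markers was 9.02 to 9.89 over controls and 11.86 to 12.91 over ischemic rats, with 7 called higher. The marker not called was *Ccr2* (0.43, adjusted p = 0.311 from limma), which overlapped between the groups. Among those called, *Vcan* was at 6.67 to 6.83 in controls, below the background level, and at 12.74 to 14.11 after ischemia. *Ly6c* was at 6.69 to 7.95 in controls and at 10.58 to 12.999 after ischemia. The paper lists *Vcan* among the genes that ischemia raised in CD163+ macrophages. For 8 granulocyte markers the mean was 6.31 to 6.54 over controls and 7.56 to 8.52 over ischemic rats, with 3 of the 6 tested called higher. Both *S100a8* (8.24 to 9.44 after ischemia) and *Lcn2* (7.82 to 9.37) were called higher and were below the background level in all controls. These 2, *Mmp9*, the third called, and *Vcan* passed the low-signal filter only through the ischemic rats, so their direction was fixed by it. Of the 3 not called, *S100a9* and *Csf3r* had positive differences and *Cxcr2* a negative one (-0.50, adjusted p = 0.179 from limma). *Camp* and *Mmp8* did not pass the filter. Of 8 markers of border-associated macrophages limma called 0. Their median difference was -0.66, against 0.10 over all genes tested. *Cd163* had a positive difference (0.54, adjusted p = 0.211 from limma) and the others had negative ones. The mean of these markers ranged from 13.14 to 14.24 over controls and from 12.96 to 13.80 over ischemic rats. The part of monocytes or granulocytes in the rise of *Bcl2a1*, or in that of the other 3 genes called higher, was not tested.

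*Mcl1*, which encodes a short-lived survival protein, was at 13.36, 13.60 and 13.93 in controls and 13.50, 13.31 and 12.96 after ischemia. The groups overlapped. The difference was -0.37 (SE 0.20, 95% interval -0.82 to 0.077, adjusted p = 0.16 from limma), and a second probe set gave -0.37 (adjusted p = 0.128 over all probe sets). With arrays centred on ribosomal protein genes it was -0.80 (adjusted p = 0.0168), still not called.

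**Figure D2:**
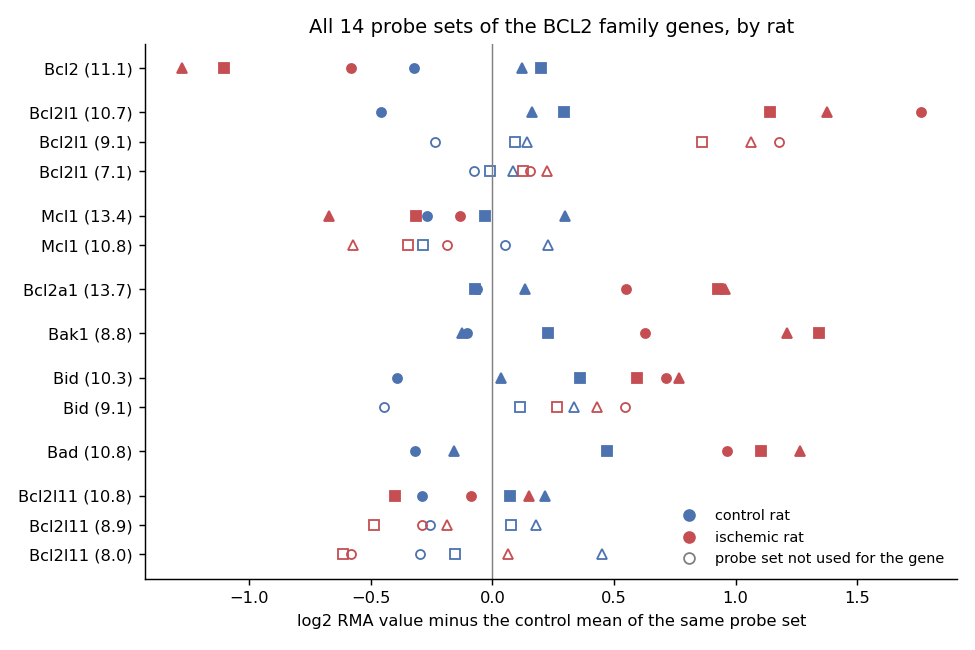
Each row is 1 of the 14 probe sets of 8 BCL2 family genes, with its mean over the arrays in brackets; the horizontal axis is a rat's log2 value minus the control mean of that probe set (circle, square and triangle are rats 63, 68 and 69 in blue and 64, 65 and 66 in red), and filled points mark the probe set that stands for the gene. The first 2 probe sets of *Bcl2l1* shift to the right, while the last, at a mean of 7.1, stays near 0.

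Promoter windows of the survival genes that were called are shown, since these genes moved in opposite directions. Of the 10 genes, 9 had a window in RefSeq, which holds 250 bases before and 50 after each annotated start on GRCr8. Capitals mark matches, on either strand, to 5 motifs: the HIF core ACGTG, the PU.1 core GAGGAA, the AP-1 motif TGANTCA, the STAT motif TTCNNNGAA and the NF-kB consensus. *Bcl2l1* has 4 annotated starts, and the most upstream one is printed (chr3:161764726-161765025, minus strand), beside *Bcl2a1* (chr8:98596556-98596855, plus strand) and *Bcl2* (chr13:23366851-23367150, minus strand).
Bcl2l1: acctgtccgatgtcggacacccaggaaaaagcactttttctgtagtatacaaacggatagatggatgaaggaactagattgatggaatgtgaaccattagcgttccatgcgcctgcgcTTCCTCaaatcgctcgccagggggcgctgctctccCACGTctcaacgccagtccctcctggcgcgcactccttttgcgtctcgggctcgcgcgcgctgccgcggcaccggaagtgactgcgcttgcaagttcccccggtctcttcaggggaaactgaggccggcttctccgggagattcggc
Bcl2a1: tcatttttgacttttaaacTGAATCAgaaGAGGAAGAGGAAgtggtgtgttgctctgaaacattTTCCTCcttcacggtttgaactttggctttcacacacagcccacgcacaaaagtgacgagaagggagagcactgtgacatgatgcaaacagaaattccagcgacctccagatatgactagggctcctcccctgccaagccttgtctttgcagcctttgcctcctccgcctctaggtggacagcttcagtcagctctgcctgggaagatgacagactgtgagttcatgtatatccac
Bcl2: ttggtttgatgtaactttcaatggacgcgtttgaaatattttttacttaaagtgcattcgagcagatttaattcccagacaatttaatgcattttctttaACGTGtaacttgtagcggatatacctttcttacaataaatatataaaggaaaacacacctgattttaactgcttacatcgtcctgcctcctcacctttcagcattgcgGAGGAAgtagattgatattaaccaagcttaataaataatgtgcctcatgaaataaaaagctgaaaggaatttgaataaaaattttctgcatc

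The *Bcl2l1* and *Bcl2* windows each held 1 ACGTG and 1 GAGGAA, at the start printed for each. Of the other 3 *Bcl2l1* windows none held ACGTG. Numbered from upstream, starts 2 and 4 each had 1 GAGGAA, and starts 3 and 4, whose windows overlap, each had 2 TTCNNNGAA. That of *Bcl2a1* held GAGGAA at 3 places and TGANTCA at 1, and no match to the NF-kB consensus. Among 33469 windows of this length, 27.6% held GAGGAA, 19.3% ACGTG, 7.33% TGANTCA, 8.87% TTCNNNGAA and 7.51% the NF-kB consensus. GAGGAA was found in 7 of the 8 measured genes, all but *Bcl2l11*. The *Bcl2* window was poor in G and C (32.7%), against 59% for that of *Bcl2l1* and a median of 51.7% over all windows. A match is a run of letters and says nothing about binding in these cells.

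Among the death genes, *Bak1*, which encodes the effector that resides in the outer membrane, was at 8.19, 8.53 and 8.17 in controls and 8.93, 9.64 and 9.51 after ischemia. All ischemic rats were above all controls. The difference was 1.06 (SE 0.21, adjusted p = 0.00535 from limma). Without any 1 rat other than ischemia 64 the call was lost (adjusted p = 0.0116 to 0.0233), as it was without the low-signal filter (adjusted p = 0.0101) and with ribosomal centring (0.64, adjusted p = 0.0601).

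*Bad* encodes a BH3-only protein that binds BCL2 and BCL-xL and is held in the cytosol by 14-3-3 proteins when growth factor signals phosphorylate it. Its levels were 9.97, 10.76 and 10.13 in controls and 11.25, 11.39 and 11.55 after ischemia. The groups stood apart, with control 68 the nearest to the ischemic rats. The rise of *Bad* was 1.11 (SE 0.21, adjusted p = 0.00486 from limma). Its call was lost without control 63 or 69 or ischemia 65 or 66 (adjusted p = 0.0168 to 0.0195) and with ribosomal centring (0.69, adjusted p = 0.0332).

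*Bid*, whose product is cut by caspase 8 and carries death receptor signals to the mitochondrion, was at 9.52, 10.27 and 9.95 in controls and 10.63, 10.51 and 10.68 after ischemia. The groups did not overlap, yet *Bid* was not called (0.69, SE 0.19, 95% interval 0.25 to 1.14, adjusted p = 0.0226 from limma). It would have been called at a threshold of 0.05. Its second probe set gave 0.41 (adjusted p = 0.145 over all probe sets), and there the groups overlapped.

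*Bcl2l11* encodes BIM, a BH3-only activator induced by loss of growth factors. It was at 10.55, 10.91 and 11.06 in controls and 10.75, 10.44 and 10.99 after ischemia, and the groups overlapped. The difference was -0.11 (SE 0.19, 95% interval -0.55 to 0.33, adjusted p = 0.662 from limma). Its other probe sets had differences of -0.32 and -0.38 (adjusted p = 0.144 and 0.26 over all probe sets), neither called.

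The 8 genes were then refitted with other filters, probe set rules, scalings, moderation and array weights and with each rat left out. *Mcl1* did not pass the low-variability filter and has no value there. At an adjusted p under 0.01, *Bcl2l1* was called in all of these fits, and *Mcl1*, *Bid* and *Bcl2l11* were called in none that tested them. For the 4 other called genes it was mostly the loss of a rat or the ribosomal centring that ended the call, and no called difference changed sign.

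**Figure D3:**
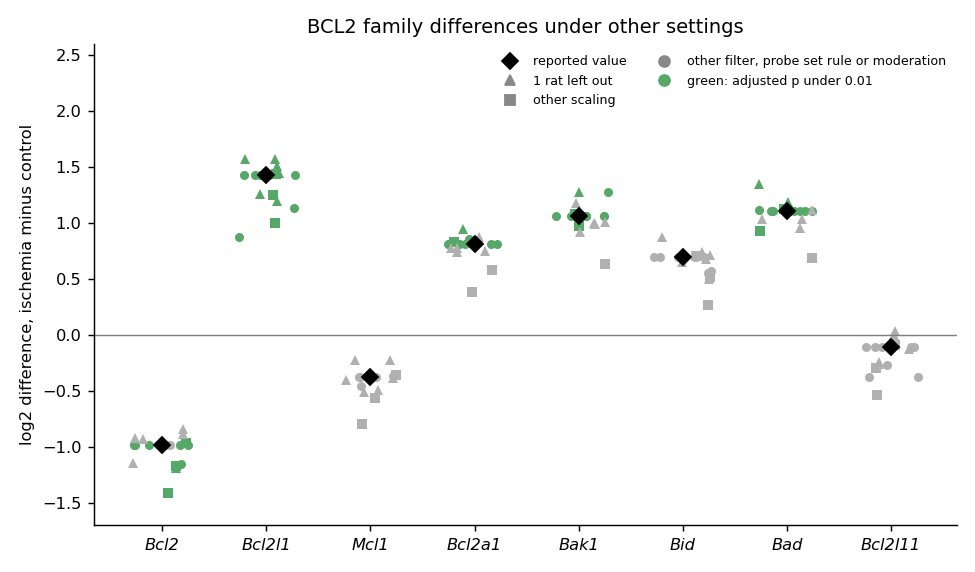
Log2 difference between ischemia and control (vertical axis) of 8 BCL2 family genes as reported (black diamonds), with 1 rat left out (triangles), another scaling (squares) or another filter, probe set rule, moderation or weighting (circles); points are spread sideways for legibility. Green points have an adjusted p under 0.01 from limma and grey ones do not: all are green for *Bcl2l1*, and none for *Mcl1*, *Bid* and *Bcl2l11*.

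Of 71 further cell death genes in 5 lists, 57 were tested, of which 9 were higher and 2 lower. These counts are read against the 16.8% called higher and 5.99% called lower over all genes tested. Their median difference was 0.083, against 0.10 over all genes tested and 0.75 over the 8 members.

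**Figure D4:**
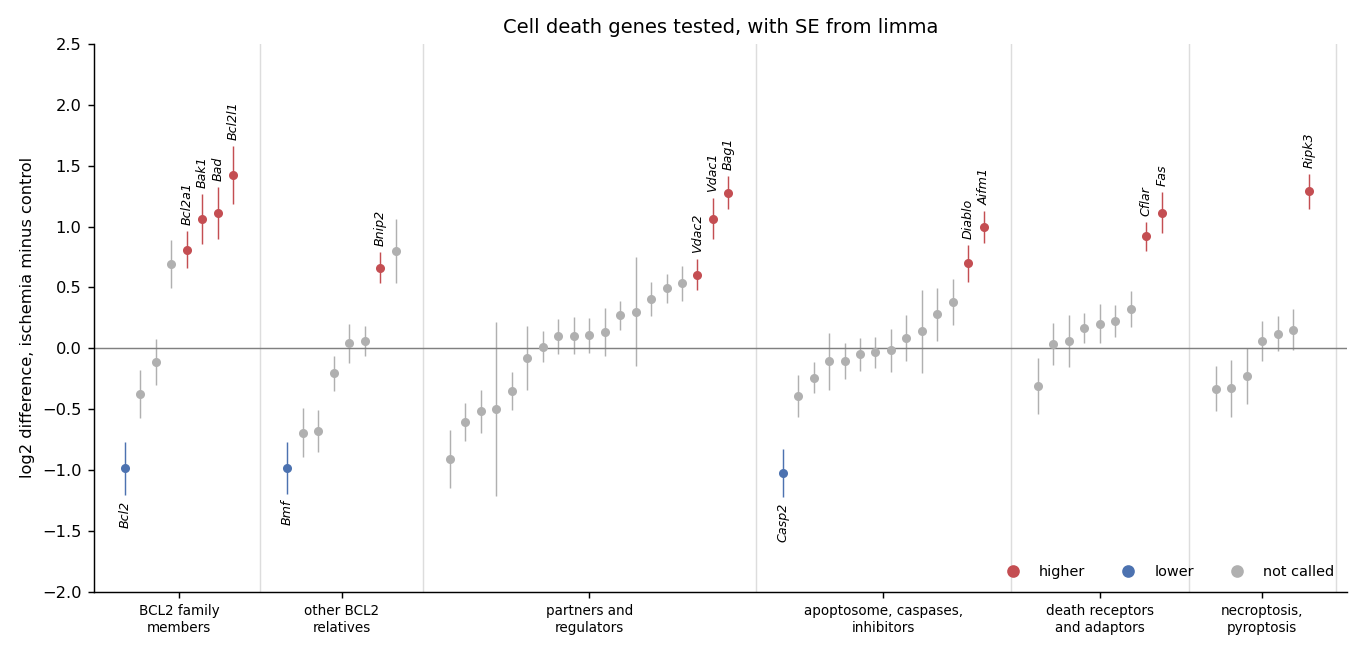
Log2 difference between ischemia and control (vertical axis) of the cell death genes tested, 8 BCL2 family members and 57 further genes in 5 lists, ordered by size within each list, with the SE from limma as bars (3 rats per group), and red and blue points are genes called higher and lower. Named are the called genes, among them *Bcl2l1* at 1.43, *Ripk3* at 1.29 and *Bag1* at 1.28.

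Other relatives of BCL2 showed no common direction. Of 8 tested, *Bnip2*, which encodes a BCL2-binding protein, was higher by 0.66 (SE 0.13, adjusted p = 0.00504 from limma). *Bmf*, a BH3-only gene, was lower, from 7.60, 8.25 and 7.99 in controls to 7.21, 7.04 and 6.63, which is under the background level (-0.98, SE 0.21, adjusted p = 0.00791). *Bnip3l* and *Bnip3*, known mitophagy receptors, had differences of -0.68 (adjusted p = 0.0161) and 0.80 (adjusted p = 0.0392) and were not called. *Bbc3*, the gene of the BH3-only protein PUMA, was chosen after its values were seen. It had a difference of -0.69 (adjusted p = 0.0258), with no overlap between the groups. The calls of *Bnip2* and *Bmf* were lost when rats were left out (any 1 rat for *Bnip2*, and control 68 or 69 or ischemia 65 or 66 for *Bmf*). That of *Bnip2* was also lost with the mean of its probe sets (0.42, adjusted p = 0.0288 from limma).

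Among 19 tested partners and regulators of the family, 3 were higher and 16 were not called. *Bag1*, which encodes a BCL2-binding co-chaperone, was at 10.71, 10.81 and 10.74 in controls and 11.82, 12.11 and 12.16 after ischemia. It rose by 1.28 (SE 0.14, adjusted p = 0.000594 from limma), with little spread within either group. *Vdac1* and *Vdac2*, genes of outer membrane channels of which VDAC2 is known to bind BAK, rose by 1.06 (adjusted p = 0.00219) and 0.61 (adjusted p = 0.00688). The call of *Vdac2* was lost when any 1 rat was left out, and that of *Vdac1* without ischemia 65 (adjusted p = 0.0115). *Ywhaz*, the gene of a 14-3-3 protein of the kind that binds phosphorylated BAD, had a difference of 0.40 (adjusted p = 0.0501), and *Atf4*, a stress response transcription factor, 0.14 (adjusted p = 0.612). Neither was called.

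Downstream of the outer membrane, 2 of 14 tested genes of the apoptosome, the caspases and their inhibitors were higher and 1 was lower. *Aifm1*, the gene of apoptosis-inducing factor, an intermembrane space protein, was at 10.23, 10.12 and 10.13 in controls and 11.03, 11.13 and 11.31 after ischemia (0.997, SE 0.13, adjusted p = 0.00114 from limma). *Diablo*, whose product antagonizes the inhibitor of apoptosis proteins once released, rose by 0.70 (SE 0.15, adjusted p = 0.00822). *Casp2*, an initiator caspase gene, was at 10.09, 10.27 and 10.29 in controls and 9.60, 9.11 and 8.85 after ischemia, with a difference of -1.03 (SE 0.20, adjusted p = 0.00485). The calls of *Diablo* and *Casp2* were lost when any 1 rat but ischemia 64 was left out. *Xiap*, an inhibitor of caspases, had a difference of -0.03 (adjusted p = 0.851) and *Htra2*, a mitochondrial protease gene, of -0.24 (adjusted p = 0.167), and neither was called.

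Of 9 tested genes of death receptors and their adaptors, 2 were higher and 7 were not called. *Fas*, a death receptor whose signal reaches the mitochondrion through BID, was at 6.83, 6.60 and 6.73 in controls, below the background level, and at 7.56, 8.13 and 7.82 after ischemia (1.11, SE 0.17, adjusted p = 0.0019 from limma). *Cflar*, the gene of cFLIP, which restrains caspase 8 at these receptors, was at 11.83, 11.83 and 11.98 in controls and 12.83, 12.84 and 12.73 after ischemia (0.92, SE 0.12, adjusted p = 0.00117). *Cflar* separated the groups without overlap. *Fas* did so too, but it passed the low-signal filter only through the ischemic rats, so its direction was fixed by the filter. *Fas* was not tested with the mean of its probe sets or with the stricter low-signal filter. *Tnfaip3*, an inhibitor of NF-kB signalling, had a difference of 0.06 (adjusted p = 0.837) and *Tnfrsf1a*, a receptor of tumour necrosis factor, of 0.32 (adjusted p = 0.11), and neither was called.

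Of 7 tested genes of necroptosis and pyroptosis, forms of death that do not need BAX or BAK, 1 was higher and 6 were not called. That gene, *Ripk3*, a kinase of necroptosis, was at 9.89, 9.78 and 10.17 in controls and 11.28, 11.16 and 11.27 after ischemia (1.29, SE 0.14, adjusted p = 0.000636 from limma). *Il1b* had a difference of 0.15 (adjusted p = 0.493) and *Pycard*, an inflammasome adaptor gene, of -0.33 (adjusted p = 0.181), and neither was called. With arrays centred on ribosomal protein genes, the calls of all 9 pathway genes that were higher were lost, *Ripk3* (adjusted p = 0.0123) and *Bag1* (adjusted p = 0.0124) by the least.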

How the data were processed

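RNA of CD11b+CD163+ cells, sorted from 3 control and 3 ischemic rats, was hybridised to Affymetrix rat genome expression arrays, 1 rat per array. The deposited table holds log2 expression, computed by the authors with RMA. This method corrects background, normalizes arrays by quantiles to bring them to a common scale, and summarises probes. The highest value still differed between the arrays, and repeated quantile normalization changed the counts of genes called higher and lower. The submitters' processing notes name R 3.3.1 and limma 3.18. Further steps used R 4.3.3 and limma 3.58.1. Probe sets were named from the platform annotation: 20826 had 1 symbol, 436 had several and 9780 had none, and 57 control probe sets were left out. Of the 1-symbol probe sets, 20758 had a gene identifier found in RefSeq.

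The probe set with the highest mean over the arrays stood for its gene. Genes above the 40th percentile of all values (7.16) on at least 3 arrays were tested with lmFit and eBayes, two-sided, with p-values adjusted by Benjamini-Hochberg over the 9928 genes and a threshold of 0.01. The 90th percentile of 29 genes of other tissues served as the background level. Intervals are 95%. The number of arrays limits the precision. The fit was tested on simulated data with known changes. Named are all members, up to 4 called genes of largest change and up to 2 not called of highest mean per pathway list, the 5 genes nearest to *Bcl2l1*, and markers beside a result. The members and lists were chosen with earlier results of these data known. *Bax* and *Pmaip1* were not analysed here. Alternatives were the low-signal and low-variability filters, the probe set rule, scaling, moderation, array weights, thresholds and leaving out each rat.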

Additional observations from a re-analysis of the deposited data

How the results depend on the processing

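With a log2 change beyond 2 required, 0 members and 0 pathway genes were called in either direction, and over all genes 162 were higher and 58 lower. With arrays centred on ribosomal protein genes, 1 member and 0 pathway genes were higher and 7 pathway genes were lower. The mean of these ribosomal genes was 12.54, 13.18 and 13.20 in controls 63, 68 and 69 and 13.35 to 13.43 in ischemic rats. Centring on it therefore lowered the difference of every gene by the same amount. Over all genes the ribosomal centring gave 395 higher and 1356 lower (22.6% of calls higher), and repeated quantile normalization 1292 and 1027 (55.7%), against 1664 and 595 (73.7%). Without the low-signal filter, 0 members and 1 pathway gene were lower. Pathway genes called lower, 2 as reported, were 7 at an adjusted p under 0.05, 6 with array weights, 6 with repeated quantile normalization and 1 with the filter at the 60th percentile. At an adjusted p under 0.05, 2722 genes were higher and 1377 lower, and with array weights 2374 and 1309. Leaving out 1 rat gave 1 to 4 members higher and 0 to 1 lower, 5 to 7 pathway genes higher and 0 to 2 lower, and over all genes 681 to 1564 higher and 166 to 816 lower. Of 989 values of pathway genes under the alternatives, 919 kept their side of the threshold, 42 lost the call and 28 gained it. For genes called as reported, 0 values changed sign, and the sign of genes not called was not compared. Why the ribosomal means differed, and the cause of the changes under other settings, was not tested. No paired analysis was possible because the groups share no rat and no replicate number.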

Other observations

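The following genes of the cell death lists were chosen after their values were seen, since control rat 69 was the highest control for each. *Bag3*, a co-chaperone gene of the BAG family, was at 9.19 and 9.30 in controls 63 and 68, at 12.25 in control 69 and at 9.74 to 9.76 in the ischemic rats. *Ddit3*, the gene of CHOP, was at 11.67 and 11.58 in controls 63 and 68 and at 12.47 in control 69, against 10.90 to 11.19 after ischemia. *Trib3* was at 7.37 and 6.93 in controls 63 and 68 and at 8.77 in control 69, and at 7.66 to 8.52 after ischemia. *Birc3*, an inhibitor of apoptosis gene, was at 11.26 and 10.57 in those controls and at 12.08 in control 69, and at 11.19 to 11.66 after ischemia. None of these 4 genes was called by limma, and the adjusted p was 0.6 for *Bag3*, 0.0178 for *Ddit3*, 0.616 for *Trib3* and 0.765 for *Birc3*. Among the 8 BCL2 family genes, control 69 was the highest control for *Mcl1*, *Bcl2a1* and *Bcl2l11*, and control 68 for the others. For any gene 1 of the controls has to be the highest, so this is a description only.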
